A study of Mus musculus with 4 samples.

Results

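Satb1 encodes a chromatin organiser of T cells, and its RNA carried 20 of the 900 reproducible DDX5 peaks of the list (2.22%). Members were all peaks whose gene annotation names Satb1. The gene had been chosen by its number of peaks in this list and with their layout known. That number and the layout are therefore a description and support nothing. The peaks came from enhanced crosslinking and immunoprecipitation (eCLIP), in which RNA crosslinked to a protein by ultraviolet light is pulled down, trimmed with RNase and sequenced. The material was 2 DDX5 immunoprecipitates (IP) and 2 inputs, numbered as replicates 1 and 2 in each group. The cells of both groups were Th17 cells, derived from naive CD4 T cells of wild-type female C57BL/6 mice aged 8 weeks by 72 h with anti-CD3, anti-CD28, IL-6 and TGF-β. The inputs had no antibody, no group lacked DDX5, and it is not stated in the labels if replicates 1 and 2 were separate cultures or animals.

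DDX5 is a DEAD-box RNA helicase that takes part in transcription, splicing and other steps of RNA processing. SATB1 binds AT-rich DNA where the double strand is prone to unpair and tethers it into loops in the T cell nucleus. It is needed for normal thymocyte development and shapes the programmes of helper and regulatory T cells. The gene is known to be transcribed from several alternative promoters, whose transcripts differ in their 5′ untranslated region (5′ UTR). A crosslinking peak shows where RNA lay in contact with the protein. Its height is a fold of IP over input for that stretch of RNA and not a measure of how much Satb1 RNA the cells held. Each peak has 1 enrichment value and 1 −log10 p, both the authors' own after combining the replicates, which leaves no replicate spread to report, and SD values are over peaks. The depth of the libraries is unknown.

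Satb1 lies on the minus strand of chromosome 17 (mm10, 51736187 to 51833290, 97104 nt), and the annotation in the peak list names 10 of its transcripts. RefSeq gives 5 start sites. They are shown because the peaks lie around and between them, with 15 bases before the start in lower case and the first 15 transcribed bases in capitals. The sequences are the RefSeq start windows of GRCm38.p6, which shares its coordinates with mm10, read 5′ to 3′ on the minus strand.
Start 1, chr17:51833276-51833305: ttgtgctcaggcctcTCACCTGACTTCCTC
Start 2, chr17:51832633-51832662: ttcggatggggagagGAGACAACTTGAAGT
Start 3, chr17:51826574-51826603: caccctcagatctgcAGACATGGTCCAGCT
Start 4, chr17:51812170-51812199: tgtttttacgactccCCCCTCCCACCCCCC
Start 5, chr17:51812040-51812069: caagctagctatgctGTTATTCGAATTGTG

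Peaks followed closely on 4 of the 5 starts. The next peak began 161 nt downstream of start 1, 45 nt downstream of start 2, 194 nt downstream of start 4 and 64 nt downstream of start 5. From start 3 the next peak lay 12946 nt away. Within 1000 nt downstream, start 1 had 4 peaks, start 2 had 6, start 3 had 0, and starts 4 and 5 had 1 each, which was the same peak. Peaks can be near more than 1 start and are then counted for each.

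**Figure D1:**
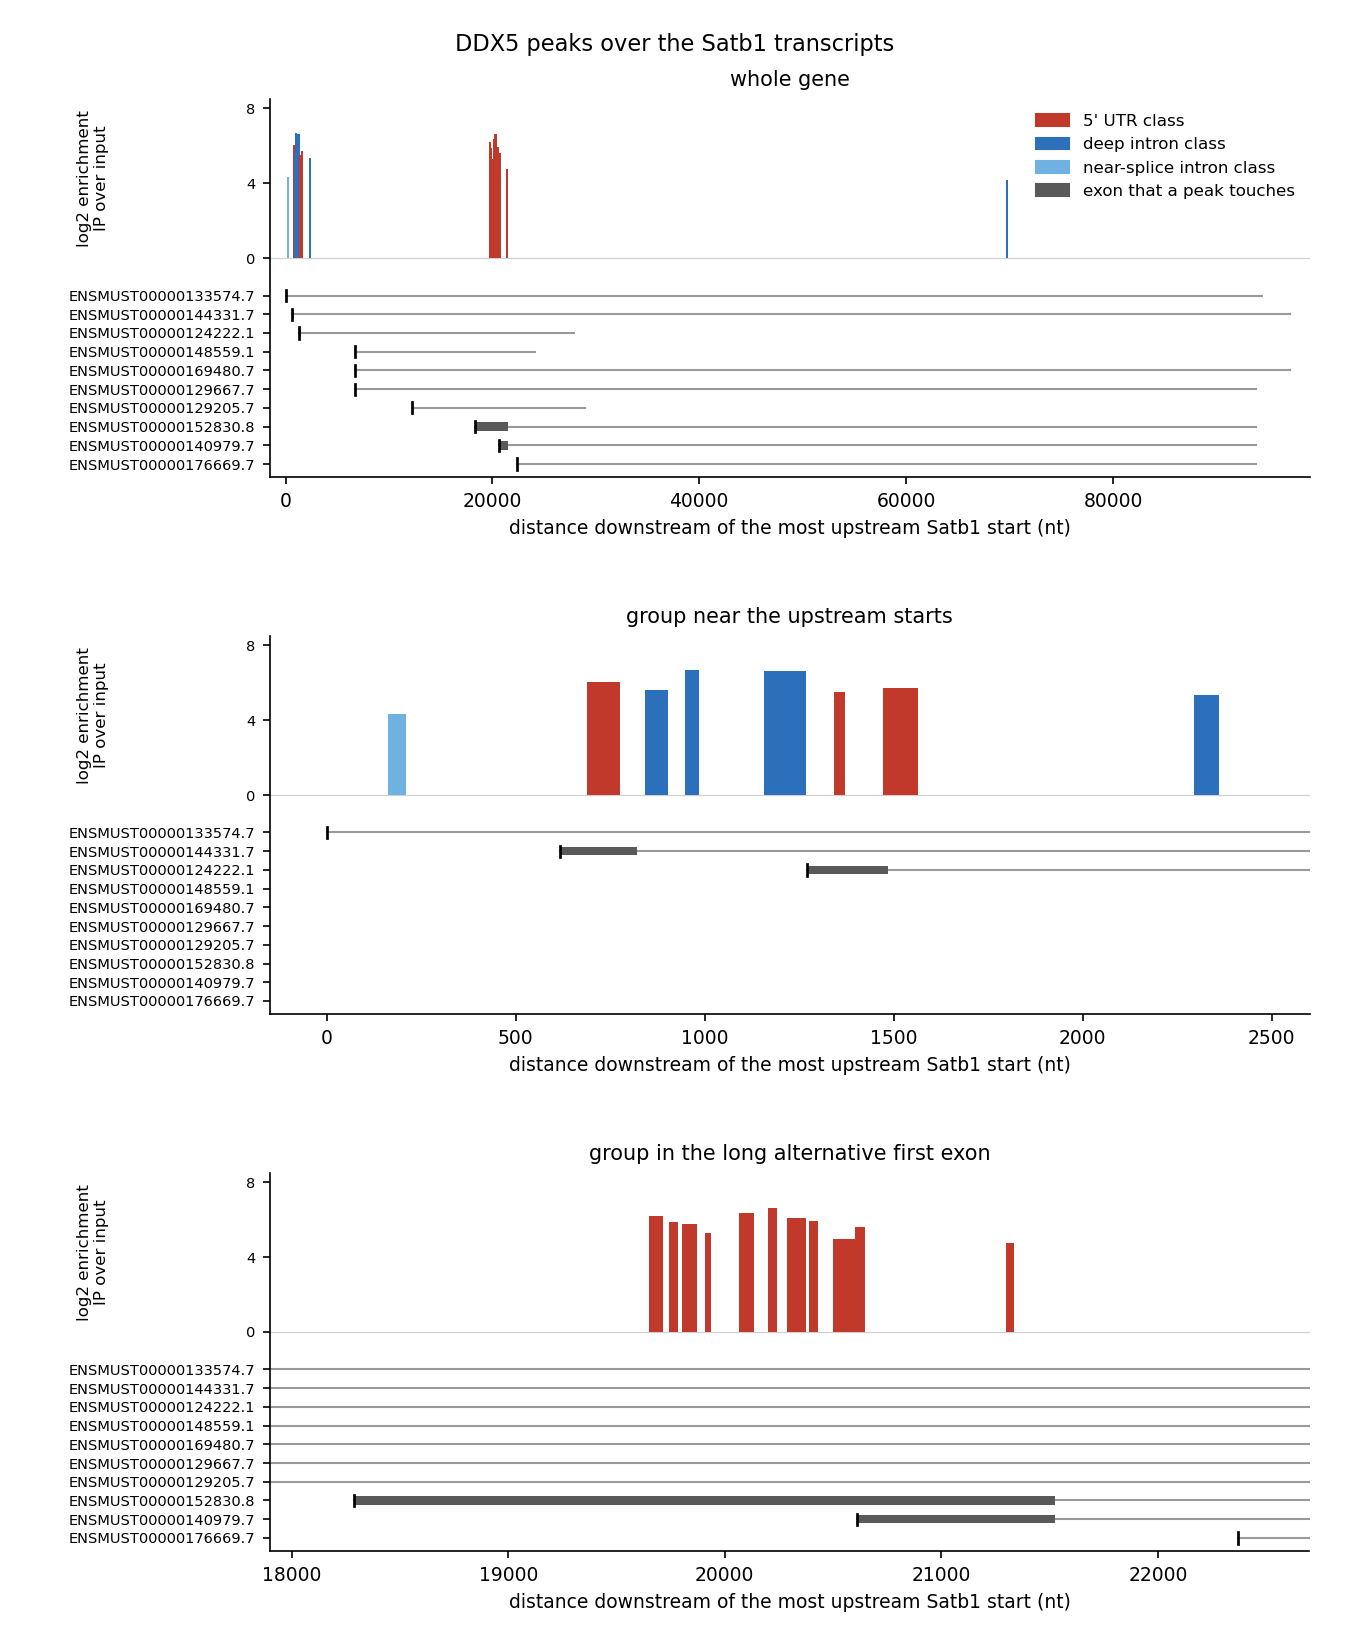
Log2 enrichment of IP over input (bars, coloured by the authors' region class) above the 10 annotated Satb1 transcripts (grey lines, black tick at the start, dark boxes for exons that a peak touches), against distance in nt from the most upstream start. The top panel shows the whole gene with 8, 11 and 1 peaks in 3 places, and the lower panels enlarge the groups of 8 and 11.

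The 20 peaks fell into 3 places along the gene. When peaks up to 2000 nt apart were joined, there was a group of 8 peaks at the upstream starts, a group of 11 peaks in a long alternative 5′ exon, and 1 peak far downstream. The upstream group ran from 51830930 to 51833129, a span of 2200 nt. The downstream group ran from 51811954 to 51813642, a span of 1689 nt. Between them lay 17287 nt without a peak, and a further 48289 nt separated the downstream group from the lone peak at 51763594 to 51763664. Joining peaks up to 1000 nt or up to 5000 nt apart gave the same 3 places. Together the peaks covered 1236 nt. They filled 24.2% of the span of the upstream group and 37.4% of the span of the downstream group.

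Of the 20 peaks, 14 were classed as 5′ UTR, 5 as deep in an intron and 1 as intronic near a splice site. The 5′ UTR class thus held 70.0% of the Satb1 peaks, against 16.6% of the peaks of the whole list. Satb1 had more 5′ UTR peaks than any other gene of the list and supplied 14 of its 149 (9.40%). Furin, Rbpj, Znrf1 and Pnck came next with 4 each. The 4 of Pnck touched or overlapped one another and made up 1 site, with widths adding to 38 nt. The deep intronic class held 5 of the 20 Satb1 peaks and 271 of the 900 peaks of the list (30.1%). The gene was chosen with this layout known, so these comparisons describe it and support nothing. No Satb1 peak lay in a coding exon or a 3′ UTR. The shares of these classes over the whole list are not given here, so whether 0 is unusual cannot be said. The 20 peaks are all the Satb1 peaks of the list and not a sample, and peaks of 1 gene are not independent. No interval is therefore given for these shares.

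Whether these RNAs were 5′ UTR or intron depends on the transcript. All 14 peaks of the 5′ UTR class also lay wholly inside an intron of another Satb1 transcript, as did 74 of the 135 such peaks of other genes (54.8%). The transcript with the most upstream start, ENSMUST00000133574, has a first intron of 23875 nt (51809288 to 51833162) that holds 19 of the 20 peaks. In this transcript no peak touched an exon. ENSMUST00000144331 had 1 peak in an exon and ENSMUST00000124222 had 2, while ENSMUST00000152830 had 11. Spliced and unspliced RNA from the same stretch cannot be told apart in the peak list.

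The upstream group is described first, with peaks numbered 5′ to 3′. Peak 1 (51833081 to 51833129) began 33 nt past the border of the first intron of ENSMUST00000133574, and its log2 enrichment of 4.35 was the lowest of the group. Peak 2 (51832514 to 51832602, 6.04 on the log2 scale) lay inside the 203-nt exon that begins ENSMUST00000144331. It started 70 nt downstream of that transcript's start. Its first 5 nt reach into the RefSeq window of start 2 and are in capitals in the last 30 bases of that window, shown because no other sequence of a peak was at hand.
Peak 2, 5′ end, chr17:51832598-51832627: tgccattaacttccgcggcggccgcCAGCT

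Peaks 3 and 4 lay just past that exon. Peak 3 (51832387 to 51832448) began 21 nt into the intron that follows it and had a log2 enrichment of 5.61. Peak 4 (51832306 to 51832341) began 128 nt into the same intron and was the highest of all Satb1 peaks, at 6.66 (101-fold over input). Peak 5 (51832024 to 51832133) was nearly as high at 6.65, and with 110 nt it was the widest. It ended just upstream of the start of ENSMUST00000124222, whose 213-nt exon at its 5′ end runs from 51831807 to 51832019.

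Peaks 6 and 7 touched that 213-nt exon. Peak 6 (51831919 to 51831947, log2 enrichment 5.50) lay inside it. Peak 7 (51831727 to 51831818, 92 nt, 5.71) crossed from the exon into the intron behind it and was the only Satb1 peak across an exon-intron border. Peak 8 (51830930 to 51830995, 5.35) lay 731 nt farther downstream, in an intron of all 3 transcripts that span it. Peaks inside and outside exons of this group overlapped in height. The 3 peaks of the 5′ UTR class had a mean of 5.75 ± 0.27 and the 5 intronic peaks a mean of 5.72 ± 0.97 (SD over peaks).

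The intron classes also depend on the transcript chosen. Peaks 3, 4 and 5 were classed as deep intronic. In the transcript that the list assigns to them they lay 714, 821 and 1029 nt from a splice site. In ENSMUST00000144331 they lay 21, 128 and 336 nt from one. So 3 of the 5 Satb1 peaks classed as deep were within 500 nt of a splice site of another transcript.

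The downstream group sat in 1 long exon. ENSMUST00000152830 starts with an exon of 3237 nt (51811768 to 51815004) that is annotated as 5′ UTR throughout, and all 11 peaks lay in it. The same stretch is intronic in 7 other transcripts. The peaks did not spread over the whole exon. Its first 1362 nt held none, and 10 of the peaks followed within the next stretch, from 51812645 to 51813642. RefSeq has no start at the 5′ end of this exon, and starts 4 and 5 both lie inside it, downstream of these 10 peaks. The nearest of the 10 was 461 nt upstream of start 4. Peak 19, the remaining one, lay downstream of both.

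The 10 close peaks varied in height. From the 5′ side, peaks 9 to 12 had log2 enrichments of 6.20, 5.86, 5.77 and 5.30. Peaks 13 and 14 were the highest of the group at 6.37 and 6.62. Peaks 15 to 18 had values of 6.09, 5.91, 4.99 and 5.60. Peak 14 (51813050 to 51813092) thus reached 98.4-fold over input, while peak 17 (51812692 to 51812789) was the lowest of the 10. Peaks 17 and 18 touched each other without a gap, and in 6 of the 10 gaps of the downstream group no more than 50 nt separated neighbours. In the upstream group this held for 1 of 7 gaps.

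Peak 18 (51812645 to 51812691) spanned the annotated start of ENSMUST00000140979 at 51812680. This transcript has an exon of 913 nt at its 5′ end, which shares its downstream border with the exon of 3237 nt. Peak 19 (51811954 to 51811990) also lay in both exons. At 4.76 on the log2 scale it was the lowest of the downstream group, and 654 nt separated it from peak 18.

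The lone peak 20 was the lowest of all. It had a log2 enrichment of 4.20 (18.4-fold) and a −log10 p of 9.37, and lay in an intron of 25042 nt (51742850 to 51767891) that 7 of the transcripts share. Its closest splice site was 4227 nt away. It was the only Satb1 peak outside the 5′ region of the gene.

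**Figure D2:**
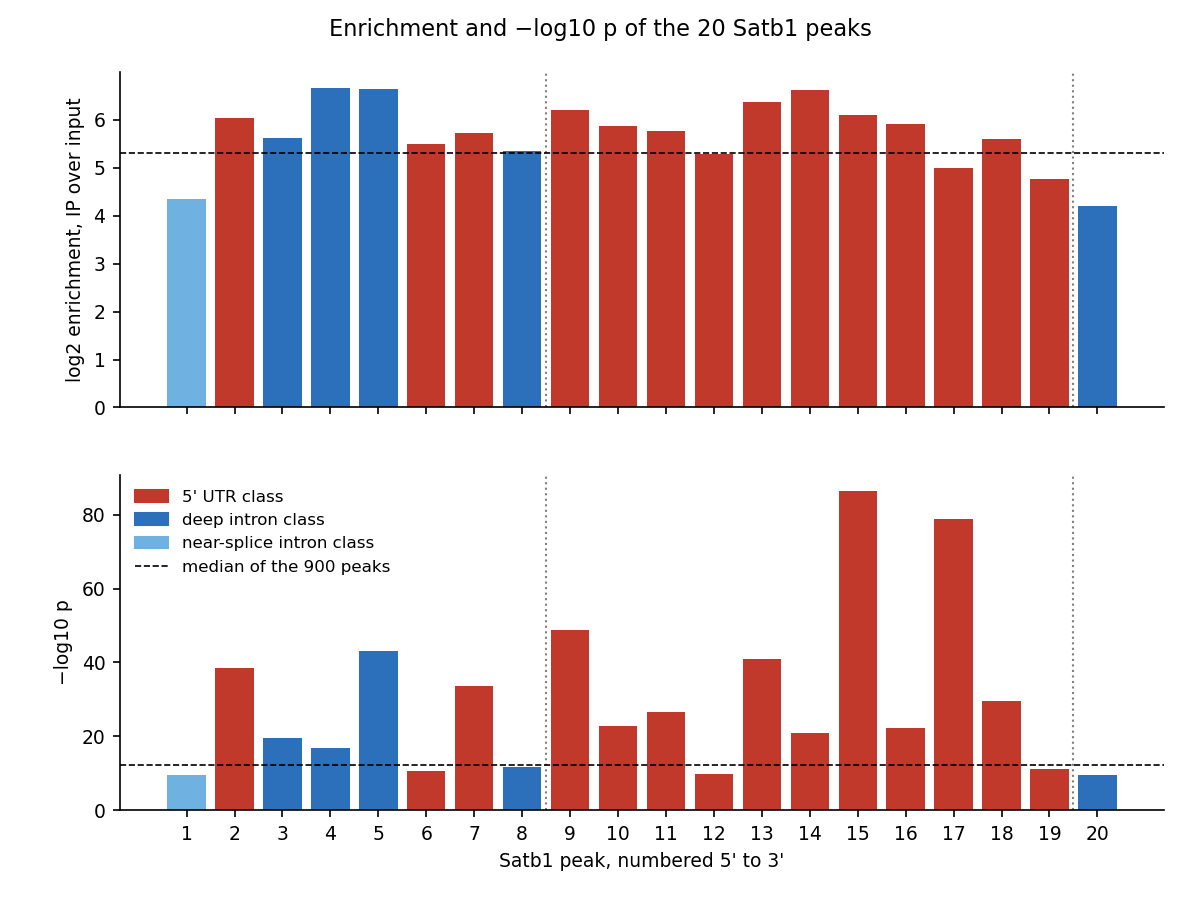
Log2 enrichment of IP over input (top) and −log10 p (bottom) of the 20 Satb1 peaks in 5′ to 3′ order, coloured by the authors' region class. Dotted lines separate the groups of 8, 11 and 1 peaks, and dashed lines mark the medians of all 900 peaks, 5.31 and 12.3. The ends of the row (peaks 1, 19 and 20) are low in both measures.

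Over all 20 peaks the log2 enrichment had a mean of 5.68 ± 0.71 (SD over peaks), a median of 5.74 and a range of 4.20 to 6.66. In the rest of the list the mean was 5.22 ± 0.99 and the median 5.30. Of the Satb1 peaks, 15 were above the median of the whole list and 9 above its upper quartile of 5.84. The highest Satb1 peak ranked 46 among 900. Most Satb1 peaks were therefore in the upper part of the list without holding its extremes. The other 5 were not above the list median, and the lowest ranked 756. As a fold over input, the height can depend on input coverage, which is not in the files used here.

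The upstream and downstream groups overlapped in height. Their means were 5.73 ± 0.75 (8 peaks) and 5.77 ± 0.57 (11 peaks), and their ranges of 4.35 to 6.66 and 4.76 to 6.62 overlapped almost fully. By the authors' classes, 5′ UTR peaks had a mean of 5.77 ± 0.51 (14 peaks) and intronic peaks a mean of 5.47 ± 1.07 (6 peaks). The difference of 0.30 is smaller than either SD, and it was 0.04 without peak 20. It turned to −0.15 when peaks below 5 on the log2 scale were left out, a cut made on the compared values themselves. These peaks share 1 gene and are not independent, so no test was made.

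The −log10 p set other peaks in front. Peak 15 (51812914 to 51813004) had the highest value of 86.6, with a log2 enrichment of 6.09. Peak 17 came next at 78.8, although its enrichment of 4.99 was below the median of the list. The highest peak by enrichment, peak 4, had a −log10 p of only 16.8. Peaks 15 and 17 are wide, with 91 and 98 nt, whereas peak 4 is 36 nt wide. Peak 5, the widest at 110 nt, had a −log10 p of 43.1, and a link with width was not tested. No Satb1 peak was at the ceiling of 400. The median was 22.5 for Satb1 and 12.3 for the rest of the list, and 14 of the 20 Satb1 peaks were above the median of the whole list.

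**Figure D3:**
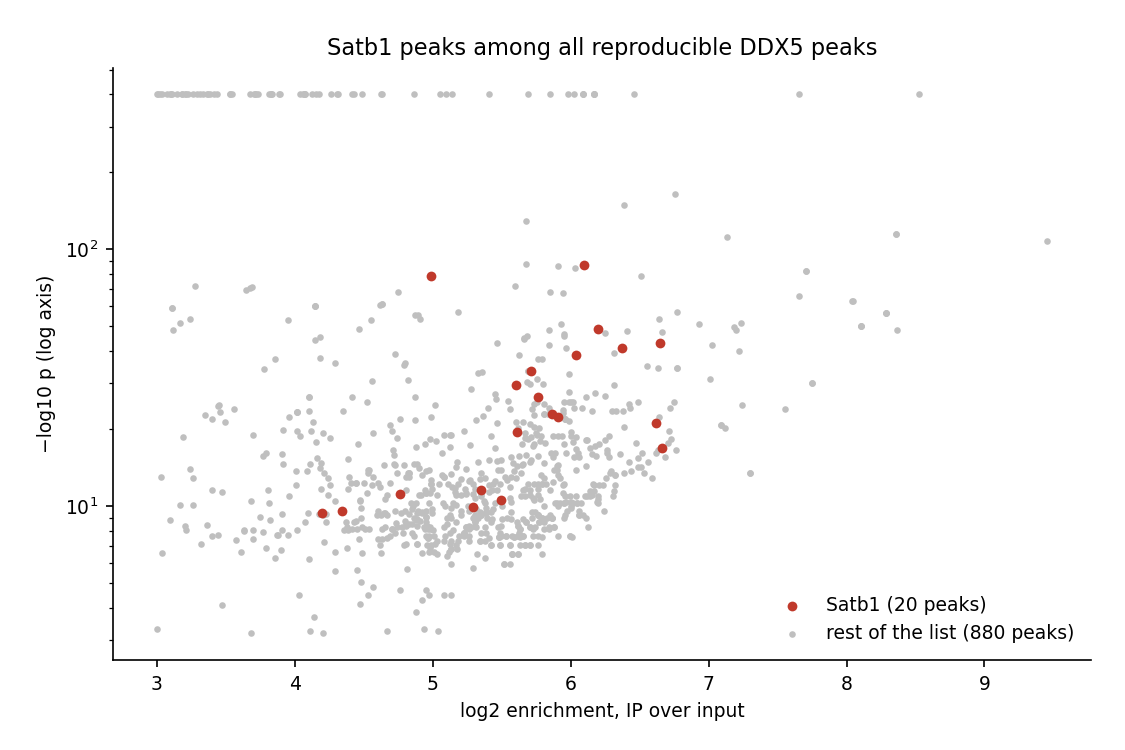
The −log10 p (log axis) against the log2 enrichment of IP over input for each of the 900 peaks, with the 20 Satb1 peaks in red and the other 880 in grey. The Satb1 peaks run from 4.20 to 6.66 in enrichment and from 9.37 to 86.6 in −log10 p, and none reaches the ceiling of 400.

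Satb1 peaks lay farther downstream of annotated starts than most. The distance was measured from the closest start, upstream of the peak or inside it, of any transcript that the peak overlaps, and a start inside the peak gave a distance of 0. Its median was 1193 nt for Satb1 and 294 nt for the 876 other peaks with such a start. Within 1000 nt downstream of a start were 9 of the 20 Satb1 peaks (45%), against a share of 73% over the list. Of these 9, 7 belonged to the upstream group. The other two were peak 18, which holds a start, and peak 19. Peaks 9 to 17 lay 1362 to 2215 nt into their long exon, and also upstream of the start that peak 18 holds, a distance that was not counted. Distances are along the gene, and the Satb1 median grew to 12993 nt when RefSeq starts were used.

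The composition of the start windows was read from RefSeq. Over 300 bases, the window of start 2 had 76.7% G and C, and those of starts 4 and 5 had 53.3% and 49.0%, where the median of 32851 RefSeq windows was 52.7%. The windows of starts 4 and 5 were rich in C and T on the transcribed strand, at 62.7% and 72.0%, against a median of 49.7%. A G-quadruplex pattern, defined as 4 runs of at least 3 G with 1 to 7 bases between them, was searched on both strands, since DDX5 is known to unwind such folds. It was found on the strand opposite to the RNA in the windows of starts 2 and 5 and on the RNA strand in none of the 5. Of all windows, 9.35% hold it on the opposite strand and 10.5% on the RNA strand. The windows of starts 4 and 5 overlap each other, and only 5 nt of any peak lie in a window, so nothing can be read from this about the peaks themselves.

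By number of peaks Satb1 ranked 3 of 459 genes, after the noncoding gene Gm26917 (32) and Ski (25), which encodes a repressor of TGF-β signalling. The noncoding Neat1, the scaffold of paraspeckles, came next with 13. Counted as sites, with touching peaks joined, Satb1 had 19 and ranked 2. Satb1 peaks were in 3 separate places over the gene and Ski peaks in 7. None of the 25 Ski peaks was in the 5′ UTR class. Mean log2 enrichment was 5.68 ± 0.71 for Satb1, 5.84 ± 0.56 for Ski and 6.11 ± 0.86 for Neat1 (SD over peaks), and the ranges overlapped.

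**Figure D4:**
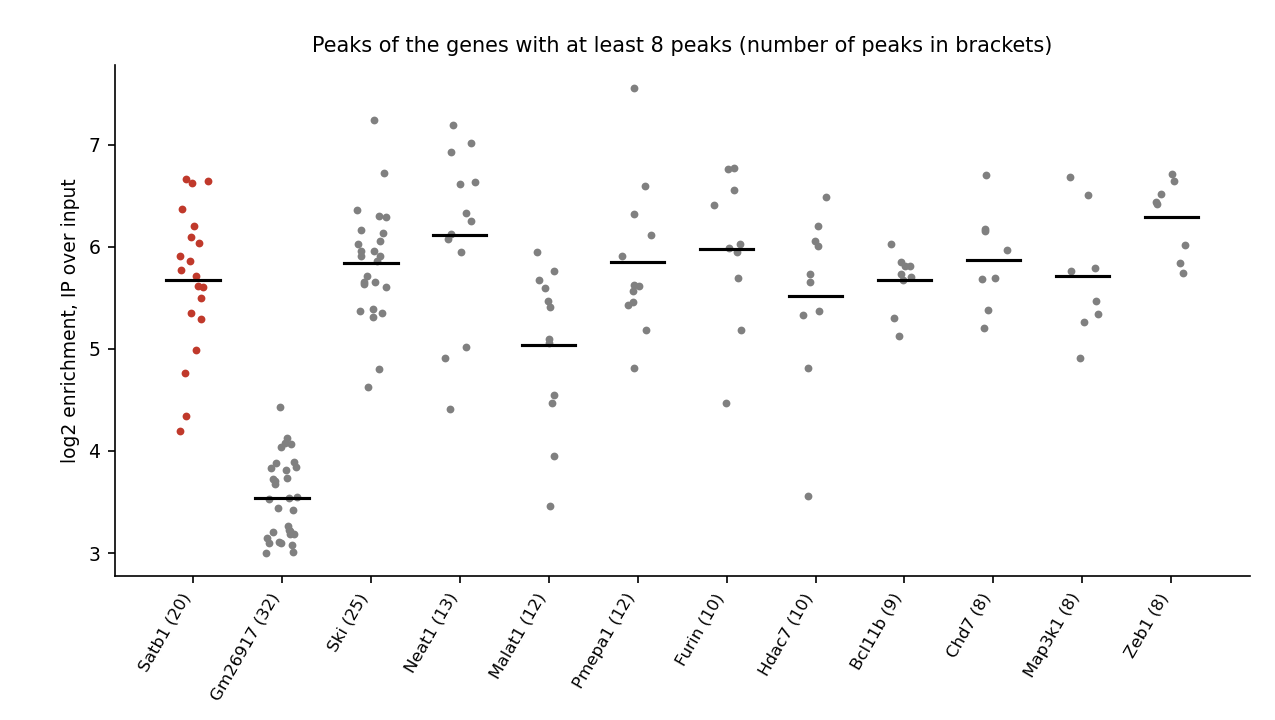
Log2 enrichment of IP over input for each peak (points) of the 12 genes with at least 8 peaks, with a line at the mean; Satb1 is in red at the left and the number of peaks stands in brackets. The mean of Satb1, 5.68, lies among those of the other protein-coding genes, and Gm26917 stands lowest at 3.54.

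The genes most like Satb1 in how their peaks divide among the authors' region classes were Znrf1, Rbpj and Rhoq. Likeness was 1 minus the summed absolute differences of the class shares over 2, among 28 other genes with at least 5 peaks, and came to 0.833, 0.821 and 0.800. Rbpj, the DNA-binding factor of Notch signalling, had 7 peaks on chromosome 5 (53590648 to 53605047), with a mean log2 enrichment of 6.18 ± 0.55. Its 4 peaks of the 5′ UTR class also lay in introns of other transcripts, as in Satb1. Znrf1, a ubiquitin ligase, had 6 peaks (4.85 ± 0.58), and none of its 4 peaks in the 5′ UTR class lay in such an intron. Rhoq, a small GTPase, had 5 peaks (4.91 ± 1.14), 3 of them in the 5′ UTR class. Of these 3, 1 also lay in an intron of another transcript. With so few peaks each, these shares are coarse.

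Of 45 genes listed as partners, fellow organisers or targets of SATB1, 8 had a peak (17.8%), where 1.81% of the 21900 protein-coding RefSeq genes did. The list was drawn up with earlier results of these data known, so this contrast is a description and supports nothing. The files give no expression level, so binding and abundance of these RNAs cannot be told apart. Among transcription factors, Bcl11b, which maintains T cell identity, had 9 peaks up to a log2 enrichment of 6.02, all intronic. Ets1 had 2 peaks in the 5′ UTR class up to 5.33, and Tcf7, a factor of Wnt signalling, had 1 deep intronic peak at 5.67. Ctnnb1, the β-catenin with which SATB1 is known to act, had 2 peaks up to 5.85. Kat2b, an acetyltransferase that modifies SATB1, had 1 at 4.69.

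Among listed target genes, Il2ra, which encodes the α subunit of the IL-2 receptor, had 7 deep intronic peaks up to 5.52. Myc had 1 peak in the 5′ UTR class at 4.74 and Ctla4, an inhibitory receptor, had 1 near a splice site at 4.92. None of these 8 genes reached the 6.66 of Satb1. That value is the highest of 20 peaks and ranked 46 among 900, so most peaks of the list were below it too. The remaining 37, among them the loop factor Ctcf and the cytokine genes Il4, Il5 and Il13, had no peak in the list, which does not show that DDX5 left them unbound.

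The peak list does not measure RNA levels, so the Th17 label could be set only against the presence of peaks. Of 9 Th17 markers, Rora (5 peaks) and Ahr (1 peak) had a peak (22.2%, against 1.81% of protein-coding genes), and the cytokine genes Il17a and Il17f were among those without one. None of the 7 T cell receptor and CD4 markers, 3 B cell markers or 3 myeloid markers had a peak, and lists this short say little beside a share of 1.81%.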

How the data were processed

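eCLIP of DDX5 was made in 2 IP and 2 input libraries of mouse Th17 cells. Tools named in the submitters' processing notes are STAR 2.4.0i, cutadapt 1.9.1 and SAMtools 1.4.1, with mm10 as the build. Per the deposited settings, each IP was normalised to its own input, replicates were joined by the irreproducible discovery rate, a random barcode of 10 nt was used, and both the log2 fold and the −log10 p of a peak had a minimum of 3. Peak caller and annotation release were not given in the sources used here. Both replicates were combined by the authors, and every peak of the deposited list has 1 log2 fold and 1 −log10 p, per the file headers, so there is no value per library and no column per sample was left out.

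Coordinates are printed 1-based; the list's starts count from 0. Peaks naming Satb1 were taken (pandas 2.3.3, SciPy 1.17.1), a peak with several gene names counting for each once. Transcripts, exons and introns came from the list's own annotation. Of 459 gene symbols, 423 matched RefSeq directly or by a unique synonym. Joining and distances were tested on simulated peaks. No test was made, since peaks of 1 gene are not replicates. Named genes were Satb1, its neighbours in rank, the 3 most alike in region classes, and listed SATB1-related genes with a peak; some listed items are not reported here. The gene and the lists were chosen with earlier results of these data known. The joining of peaks into places, the distances to starts, the composition of start windows, the naming of Furin, Pnck and Gm26917 and the value without peak 20 were added after the data were examined.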

Additional observations from a re-analysis of the deposited data

How the results depend on the processing

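Stricter thresholds kept at least 16 of the 20 Satb1 peaks, with mean log2 enrichments of 5.68 to 5.95. The mean of 5.95 came from removing peaks below 5 on the log2 scale. That cut is made on the averaged values and can only raise their mean. Requiring a −log10 p of 10 or more kept 17 peaks, with a mean of 5.87. The only threshold at which the rank was recomputed was a log2 fold of 4, which removes no Satb1 peak. The rank was 2 there, 2 with touching peaks joined and 3 in the main setting. The number of sites was 19 with touching peaks joined and 6 with gaps of up to 200 nt. The 5′ UTR share of 70.0% was 0 when peaks inside an intron of another transcript were not counted. The difference in log2 enrichment between 5′ UTR and intronic peaks was 0.30 with all peaks. It was −0.15 at a log2 enrichment of at least 5 and −0.27 at a −log10 p of at least 10. Both cut-offs drop the intronic peaks 1 and 20. The first also drops the 5′ UTR peaks 17 and 19, and the second the 5′ UTR peak 12. The median distance from the 5′ end was 19185 nt from the start of the longest transcript (19 peaks inside it) and 1193 nt from the closest start, and 12993 nt with RefSeq starts. No paired analysis was possible because the list holds 1 value per peak for both replicates; for the same reason no alternative without a replicate was run. Depth is unknown.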
